A study of Mus musculus with 10 samples.

Results

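The endogenous opioid peptide system was described here by 7 genes, of 19938 genes with a probeset assigned to a single symbol. They comprise 4 genes for peptide precursors, Penk, Pdyn, Pomc and Pnoc, and 3 genes for the classical opioid receptors, Oprm1, Oprd1 and Oprk1. They were chosen by their place in the opioid system, each read from its single-symbol probeset with the highest mean log2 signal over the arrays. Penk, which has 1 such probeset, was selected on its signal and its difference between the groups in these same arrays, so its levels are a description and have no test.

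Opioid peptides are made as large secreted precursors. Proenkephalin, the product of Penk, holds several copies of Met-enkephalin and a copy of Leu-enkephalin, which are cut out at pairs of basic residues by proprotein convertases, trimmed by carboxypeptidases and, once secreted, broken down by peptidases on cell surfaces. Enkephalins bind mainly the delta and mu opioid receptors, which couple to inhibitory G proteins and are turned off by beta-arrestins. Penk is best known from neurons and the adrenal medulla, but in rodents it is also transcribed in embryonic mesenchyme and in cultured fibroblasts.

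The RNA came from wild-type mouse embryonic fibroblasts (MEFs) that had received 1000 rad of radiation, which stops their division, and was hybridised to 10 Mouse Gene 1.0 ST arrays after 9 days of culture. Of these, 3 arrays held MEFs + ALL + nilotinib, that is MEFs that shared their medium, across a Transwell membrane, with nilotinib-treated 8093 cells, a Bcr/Abl transgenic mouse line of precursor B acute lymphoblastic leukemia (ALL). A single array held MEFs + ALL + DMSO, with 8093 cells treated with the solvent, 3 held MEFs + nilotinib without ALL cells and 3 held MEFs + DMSO. Nilotinib, an inhibitor of the Abl kinase, was given at 16 nM and reached the MEFs as well as the ALL cells, and all media contained murine IL-3. The 8093 cells are 1 line, and the triplicates were separate dishes of MEFs, so p-values measure the spread between dishes.

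Values are log2 signals. The limma fit took all 35557 probesets and a common spread for the 4 groups, and genes are called where the Benjamini-Hochberg adjusted p is under 0.05. The mean log2 signal of 12 fibroblast markers was 11.87 to 11.89 in MEFs + ALL + nilotinib, 11.68 in MEFs + ALL + DMSO, 11.71 to 11.84 in MEFs + nilotinib and 11.79 to 11.86 in MEFs + DMSO, which, as probesets share no scale, gives a level in each group and no proof of identity. Between MEFs + ALL + nilotinib and MEFs + DMSO the differences of these 12 markers ran from -0.36 to 0.71. Limma called 1 of the 12 higher and 0 lower, beside 0.503% and 0.124% of all probesets. The arrays lay wholly above for 3 of the 12 and wholly below for 4, against 14.1% and 10.6% of all probesets. The MEFs + ALL + DMSO array stood apart. The mean log2 signal of 11 pro-B and B cell markers was 8.0 on it, against 5.80 to 5.93 in MEFs + DMSO, and that of 10 pan-leukocyte markers was 9.69, against 8.01 to 8.11. The other arrays had pro-B and B cell means of 5.67 to 5.86 with MEFs + ALL + nilotinib and 5.68 to 5.90 with MEFs + nilotinib, and pan-leukocyte means of 8.10 to 8.21 and 7.92 to 8.16. The methods state that parallel dishes of the MEFs + ALL + DMSO group were discarded for contamination by ALL cells. Every value of this group rests on the remaining array, and its markers are given again beside the results they touch.

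Penk had a higher signal in MEFs with ALL cells than in MEFs without them. Its log2 signal (probeset 10511363) was 10.20, 10.01 and 10.10 in MEFs + ALL + nilotinib, 10.59 in MEFs + ALL + DMSO, 9.15, 8.99 and 9.02 in MEFs + nilotinib, and 9.05, 8.98 and 8.94 in MEFs + DMSO. All 4 arrays with ALL cells lay above all 6 arrays without them, and MEFs + nilotinib overlapped MEFs + DMSO. For comparison, the arrays of MEFs + ALL + nilotinib lay wholly above those of MEFs + DMSO for 14.1% of all probesets and above those of MEFs + nilotinib for 7.8%. The share of probesets with all 4 arrays above all 6 was not counted. The order of the groups was MEFs + ALL + DMSO, MEFs + ALL + nilotinib, MEFs + nilotinib and MEFs + DMSO, and the neighbours MEFs + nilotinib and MEFs + DMSO did not differ beyond their spread.

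The group means of Penk were 10.11 ± 0.09 in MEFs + ALL + nilotinib, 9.05 ± 0.09 in MEFs + nilotinib and 8.99 ± 0.06 in MEFs + DMSO (SD, n = 3 each). On the linear scale the mean signal was 1103 in MEFs + ALL + nilotinib, 1542 on the MEFs + ALL + DMSO array, 532 in MEFs + nilotinib and 508 in MEFs + DMSO. Relative to MEFs + DMSO, Penk was thus 1.12 higher on the log2 scale in MEFs + ALL + nilotinib (SE 0.07), a fold of 2.17. Penk stood at rank 3 of the rises among the 19938 genes, which restates the difference on which it was selected. Against MEFs + nilotinib, the group that shares the drug, it was higher by 1.05 (SE 0.07), a fold of 2.07. The difference between MEFs + nilotinib and MEFs + DMSO was 0.06 (SE 0.07). In these bulk samples, more cells that express Penk and more Penk RNA per cell cannot be told apart.

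**Figure D1:**
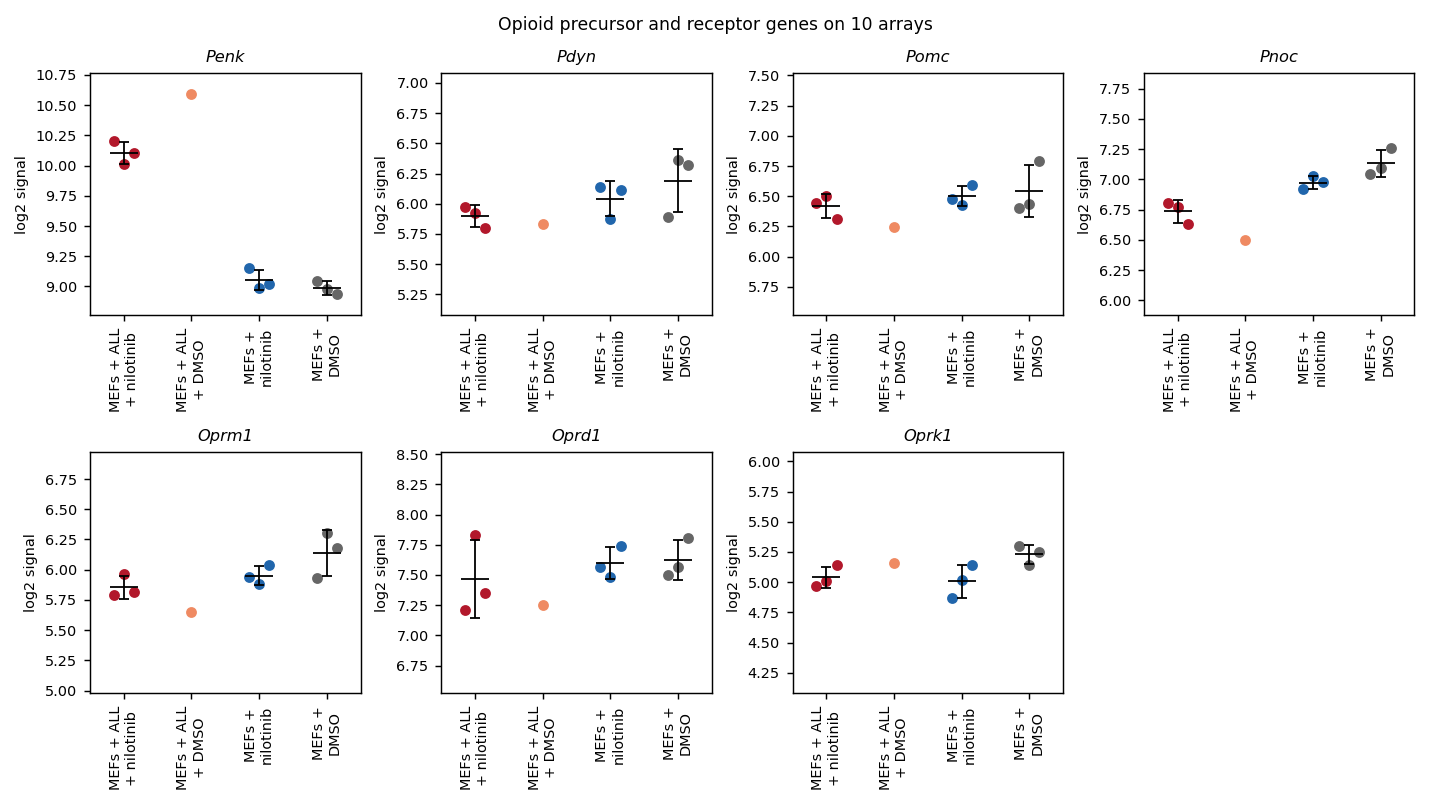
Log2 signal (vertical axes, the same height in log2 units in each panel) of the 7 opioid genes on each array, by group. Points are arrays, horizontal lines group means and bars the SD of the groups of 3. The arrays with ALL cells lie between 10.01 and 10.59 for Penk and those without them between 8.94 and 9.15, while Pnoc lies lowest, at 6.50, on the MEFs + ALL + DMSO array.

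The MEFs + ALL + DMSO array exceeded the mean of MEFs + DMSO by 1.60 in Penk (SE 0.11, fold 3.04), and the difference between MEFs + ALL + nilotinib and that array was -0.49 (SE 0.11), with all 3 arrays of MEFs + ALL + nilotinib below it, as for 23% of all probesets. The difference that came with ALL cells was thus 1.05 under nilotinib and 1.60 under DMSO, and the interaction, the ALL difference under nilotinib minus that under DMSO, was -0.55 (SE 0.13). On the same array the pro-B and B cell markers rose by as much as 4.18 for Igll1, the surrogate light chain gene, relative to MEFs + DMSO, and the part of leukocyte RNA in its Penk signal was not tested. In MEFs + ALL + nilotinib 0 of the 11 pro-B and B cell markers was called higher relative to MEFs + DMSO by limma, 0 had an unadjusted p under 0.05, and their median log2 difference was -0.12. Of the 10 pan-leukocyte markers 1 was called higher in that comparison, where 0.503% of all probesets were, and their median difference was 0.02. The part of leukocyte RNA in the Penk signal of this group was not tested either.

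The signals of the opioid genes were set against a gauge of background. Signals of different probesets do not share a scale, so the genes are not ranked by level. As a gauge of background, 1190 olfactory and vomeronasal receptor genes were taken, whose transcription is known mainly from sensory neurons. Their silence in MEFs was not tested. Their probesets had mean log2 signals between 3.16 (5th percentile) and 6.29 (95th percentile), with a median of 4.51. Pdyn, Oprm1 and Oprk1 had means within that range, Pomc, Pnoc and Oprd1 had means above its upper end but below the highest such receptor (8.85), and Penk lay above all 1190.

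Pnoc, the precursor of nociceptin, which acts on a receptor of its own, ran opposite to Penk. Its log2 signal was 6.80, 6.77 and 6.63 in MEFs + ALL + nilotinib, 6.50 in MEFs + ALL + DMSO, 6.92, 7.03 and 6.98 in MEFs + nilotinib, and 7.05, 7.09 and 7.26 in MEFs + DMSO. All 4 arrays with ALL cells lay below all 6 without them, and MEFs + nilotinib lay below MEFs + DMSO. Over all probesets, the arrays of MEFs + ALL + nilotinib lay wholly below those of MEFs + DMSO for 10.6% and below those of MEFs + nilotinib for 6.62%. Those of MEFs + nilotinib lay below those of MEFs + DMSO for 7.05%. The share of probesets with all 4 arrays below all 6 was not counted. The difference between MEFs + ALL + nilotinib and MEFs + DMSO was -0.40 (SE 0.08, 95% interval -0.58 to -0.22, limma adjusted p = 0.0774), which did not pass, although it did when the dimmest 25% of probesets were left out (limma adjusted p = 0.0491) and with array weights (limma adjusted p = 0.0268). Over all alternatives this adjusted p ran between 0.0268 and 0.241.

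Pdyn, the precursor of dynorphins, which bind the kappa receptor, averaged 5.90 ± 0.09 in MEFs + ALL + nilotinib, 6.04 ± 0.15 in MEFs + nilotinib and 6.19 ± 0.26 in MEFs + DMSO (SD, n = 3 each), with 5.83 on the MEFs + ALL + DMSO array. Its replicates in MEFs + DMSO, at 5.89, 6.36 and 6.32, overlapped those of both other groups. Pomc, whose precursor gives beta-endorphin and corticotropin, averaged 6.42 ± 0.10 in MEFs + ALL + nilotinib, 6.50 ± 0.08 in MEFs + nilotinib and 6.54 ± 0.22 in MEFs + DMSO, with 6.24 on the MEFs + ALL + DMSO array. Its groups overlapped in every pairing of groups of 3.

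Among the receptors, Oprm1, the mu receptor at which morphine acts, averaged 5.86 ± 0.10 in MEFs + ALL + nilotinib, 5.95 ± 0.08 in MEFs + nilotinib and 6.14 ± 0.19 in MEFs + DMSO (SD, n = 3 each), with 5.65 on the MEFs + ALL + DMSO array. Oprd1, the delta receptor preferred by enkephalins, averaged 7.47 ± 0.32 in MEFs + ALL + nilotinib, 7.60 ± 0.13 in MEFs + nilotinib and 7.62 ± 0.16 in MEFs + DMSO, with 7.25 on the MEFs + ALL + DMSO array. The spread of Oprd1 in MEFs + ALL + nilotinib came from replicate 2, at 7.83, against 7.21 and 7.35 in the others. Oprk1, the kappa receptor, averaged 5.04 ± 0.09 in MEFs + ALL + nilotinib, 5.01 ± 0.14 in MEFs + nilotinib and 5.23 ± 0.08 in MEFs + DMSO, with 5.16 on the MEFs + ALL + DMSO array.

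None of the 6 genes besides Penk passed the test between MEFs + ALL + nilotinib and MEFs + DMSO. Limma called 0 of 6, where it called 0.627% of all probesets. An unadjusted p under 0.05 was found for 2 of the 6 and for 5770 of the 35557 probesets. With array weights limma called 1, Pnoc, beside 1263 of the 35557 probesets. The differences were -0.29 for Pdyn (SE 0.13), -0.12 for Pomc, -0.28 for Oprm1, -0.16 for Oprd1 and -0.19 for Oprk1, with limma adjusted p between 0.235 and 0.673. The 95% intervals were -0.59 to 0.02 for Pdyn, -0.52 to -0.05 for Oprm1 and -0.53 to 0.21 for Oprd1. All 6 differences were negative, with a median of -0.24, while the median over all probesets was -0.00 with 51.0% negative, and that of the chemosensory receptor genes -0.02 with 56.7% negative. Pnoc and Oprk1 had all arrays of MEFs + ALL + nilotinib below those of MEFs + DMSO, which held for 10.6% of all probesets.

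Against MEFs + nilotinib, limma again called 0 of the 6 genes in MEFs + ALL + nilotinib, and 0 with array weights, where the background was 0.186% of all probesets. An unadjusted p under 0.05 was found for 1 of the 6 and for 3295 of the 35557 probesets. Pnoc differed by -0.24 (SE 0.08, 95% interval -0.42 to -0.06, limma adjusted p = 0.395), and its 3 arrays of MEFs + ALL + nilotinib lay below those of MEFs + nilotinib, as did those of 6.62% of all probesets. The other 5 differences lay between -0.14 for Pdyn and 0.03 for Oprk1.

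Nilotinib without ALL cells gave 0 calls among the 6 genes, with 1 at an unadjusted p under 0.05. Limma called 0% of all probesets here, 3985 had an unadjusted p under 0.05, and limma with array weights also called 0. Oprk1 differed by -0.22 (SE 0.09, limma adjusted p = 0.410) and Pnoc by -0.16 (SE 0.08, limma adjusted p = 0.489), each with all arrays of MEFs + nilotinib below those of MEFs + DMSO, as in 7.05% of all probesets. The median difference of the 6 genes was -0.15, and that of the chemosensory receptor genes -0.06.

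**Figure D2:**
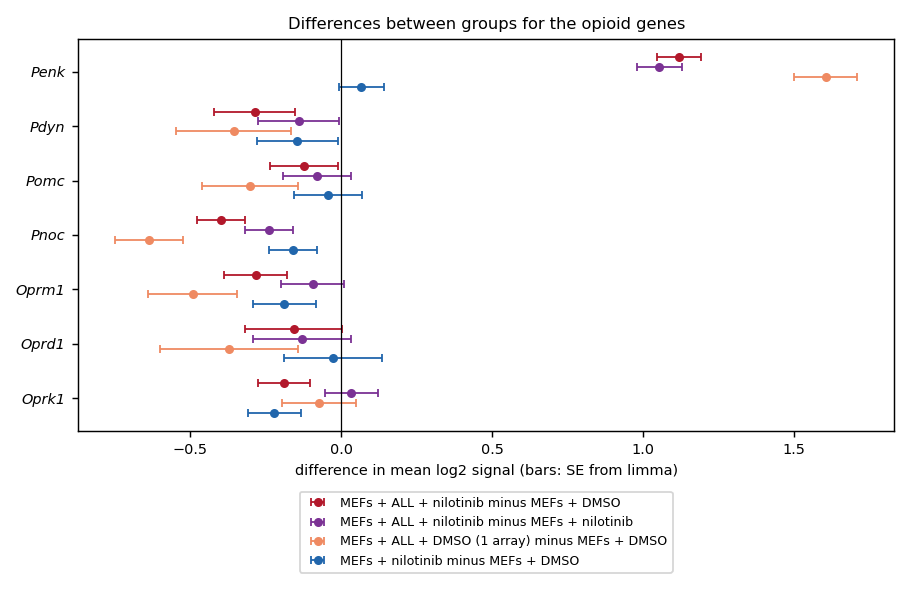
Differences in mean log2 signal (horizontal axis) of each opioid gene in 4 comparisons, with bars for the SE from limma. Penk lies at 1.12, 1.05 and 1.60 in the comparisons that add ALL cells and at 0.06 for nilotinib alone, whereas the other genes lie between -0.64 and 0.03.

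On the MEFs + ALL + DMSO array, Pnoc fell by 0.64 on the log2 scale relative to MEFs + DMSO (SE 0.11, limma adjusted p = 0.0101), and this call held without each MEFs + DMSO replicate in turn (limma adjusted p 0.0173 to 0.0280). It was lost with only the compared groups in the fit (limma adjusted p = 0.0580). Pnoc was the 1 gene of 6 called, where limma called 10.3% of all probesets, 6.67% as higher and 3.59% as lower. Oprm1 differed by -0.49 (SE 0.15, limma adjusted p = 0.0705), Oprd1 by -0.37, Pdyn by -0.36, Pomc by -0.30 and Oprk1 by -0.07. The median of the 6 was -0.36, against -0.07 over all probesets and -0.14 over the chemosensory receptor genes. The pro-B and B cell marker mean of this array was 8.0, against 5.80 to 5.93 in MEFs + DMSO, and the part of leukocyte RNA in these lower signals was not tested. The interaction for Pnoc was 0.40 (SE 0.14, limma adjusted p = 0.169), and limma called 0 of the 6 genes for the interaction, 0 with array weights, and 3.95% of all probesets. An unadjusted p under 0.05 for the interaction was found for 1 of the 6 and for 6929 of the 35557 probesets.

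The enzymes, receptors and signalling proteins around the enkephalins were followed in 6 lists with 58 measured genes. Between MEFs + ALL + nilotinib and MEFs + DMSO, limma called 1 of the 58 as higher and 0 as lower, where it called 0.503% of all probesets as higher and 0.124% as lower, and the median difference was -0.01. An unadjusted p under 0.05 was found there for 16 of the 58 and for 5770 of the 35557 probesets, the background for the counts of each list below. Against MEFs + nilotinib limma called 1 as higher and 1 as lower, beside 0.149% and 0.0366% of all probesets. Both calls as higher were of Anpep.

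Anpep encodes aminopeptidase N, a cell surface peptidase that removes the first residue of enkephalins. Its log2 signal was 8.09, 7.99 and 8.01 in MEFs + ALL + nilotinib, 7.82 in MEFs + ALL + DMSO, 7.44, 7.36 and 7.40 in MEFs + nilotinib, and 7.64, 7.63 and 7.44 in MEFs + DMSO. All arrays with ALL cells lay above all arrays without them, and the arrays of MEFs + ALL + nilotinib alone lay above those of MEFs + DMSO for 14.1% of all probesets and above those of MEFs + nilotinib for 7.8%. Anpep rose by 0.46 in MEFs + ALL + nilotinib relative to MEFs + DMSO (SE 0.07, fold 1.37, limma adjusted p = 0.0379) and by 0.63 relative to MEFs + nilotinib (SE 0.07, fold 1.55, limma adjusted p = 0.0202). Leaving out any 1 of the replicates compared ended both calls, with limma adjusted p between 0.0618 and 0.153 against MEFs + DMSO and between 0.0504 and 0.114 against MEFs + nilotinib, and so did a fit of only the compared groups (limma adjusted p = 0.0906 and 0.0948).

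Mme, which encodes neprilysin, the peptidase that cuts enkephalins within their sequence, had log2 signals of 7.64, 7.09 and 7.47 in MEFs + ALL + nilotinib, 7.09 in MEFs + ALL + DMSO, 6.93, 7.0 and 6.54 in MEFs + nilotinib, and 6.88, 6.75 and 6.56 in MEFs + DMSO. Arrays with ALL cells were again all above those without them, but the replicates varied. The shares of all probesets given for Anpep, which leave out the MEFs + ALL + DMSO array, apply here too. The difference of 0.67 between MEFs + ALL + nilotinib and MEFs + DMSO (SE 0.17, limma adjusted p = 0.127) did not pass, and was called with array weights. That setting called 1263 probesets and gave MEFs + ALL + nilotinib replicate 2, where Mme was 7.09, a weight of 0.28. The median over the 7 genes for enkephalin-degrading peptidases was 0.17, with 1 called and 4 at an unadjusted p under 0.05. Anpep and Mme are also known as surface antigens of leukocytes, and the mean of the pan-leukocyte markers was 8.10 to 8.21 in MEFs + ALL + nilotinib, 7.92 to 8.16 in MEFs + nilotinib and 8.01 to 8.11 in MEFs + DMSO, with 1 of the 10 markers called higher than in MEFs + DMSO. The mean of 10 macrophage markers was 8.64 to 8.81 in MEFs + ALL + nilotinib, 8.65 in MEFs + ALL + DMSO, 8.44 to 8.69 in MEFs + nilotinib and 8.49 to 8.62 in MEFs + DMSO, with 0 of 10 called by limma between MEFs + ALL + nilotinib and MEFs + DMSO and 2 at an unadjusted p under 0.05. The part of either cell type in the Anpep and Mme signals was not tested.

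Of the 11 genes for prohormone processing limma called 0 between MEFs + ALL + nilotinib and MEFs + DMSO, and 0 with array weights, and the median was -0.09. An unadjusted p under 0.05 was found for 5 of the 11, beside 5770 of the 35557 probesets. The largest differences were those of Pcsk6, a secreted convertase, at -0.30 (SE 0.07, limma adjusted p = 0.112), and of Furin, the convertase of the trans-Golgi network, at 0.29 (SE 0.10, limma adjusted p = 0.202). The arrays of these groups did not overlap for both genes, as for 4 of the 11 genes above and 4 below, against 14.1% and 10.6% of all probesets. Carboxypeptidase E (Cpe), which trims enkephalins after the first cut, averaged a log2 signal of 11.83 in MEFs + ALL + nilotinib and 11.99 in MEFs + DMSO, and its difference of -0.16 did not pass (limma adjusted p = 0.240). The 8 genes for secretory granule proteins, which mark the regulated pathway of neuroendocrine cells, had a median of -0.01 and 0 calls by limma, with 1 at an unadjusted p under 0.05 and 0 with array weights. Ptprn, a membrane protein of dense-core granules, differed by 0.17 (limma adjusted p = 0.290), and Chga, chromogranin A, by -0.15 (limma adjusted p = 0.427).

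The list of receptor signalling had 15 genes with a median of -0.04 and 0 calls between MEFs + ALL + nilotinib and MEFs + DMSO. An unadjusted p under 0.05 was found for 2 of the 15, beside 5770 of the 35557 probesets. Arrb1, which encodes beta-arrestin 1, differed by 0.37 (SE 0.07, limma adjusted p = 0.0599) and was called with array weights, without the dimmest 25% of probesets and with eBayes with trend and robust. Gnai1, an inhibitory G protein alpha subunit, differed by -0.25 (SE 0.12, limma adjusted p = 0.351). Rgs4, which speeds the turning off of such G proteins, had log2 signals of 10.39, 10.33 and 10.35 in MEFs + ALL + nilotinib, 10.29 in MEFs + ALL + DMSO, 10.71, 10.86 and 10.81 in MEFs + nilotinib, and 10.54, 10.59 and 10.52 in MEFs + DMSO. It fell by 0.44 on the log2 scale in MEFs + ALL + nilotinib relative to MEFs + nilotinib (SE 0.06, limma adjusted p = 0.0445), where the MEFs + nilotinib arrays were the highest of all. This call was lost without any 1 of the replicates compared (limma adjusted p 0.0780 to 0.207) and with only the compared groups in the fit (limma adjusted p = 0.280).

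Among the 3 other proteins that bind opioid peptides, limma called 0 between MEFs + ALL + nilotinib and MEFs + DMSO, with 2 at an unadjusted p under 0.05. Ackr3 is an atypical chemokine receptor that takes up opioid peptides. Its log2 signal was 7.49, 7.47 and 7.40 in MEFs + ALL + nilotinib, 7.60, 7.25 and 7.35 in MEFs + nilotinib, and 7.86, 7.79 and 7.71 in MEFs + DMSO. Between MEFs + ALL + nilotinib and MEFs + DMSO it differed by -0.33 (SE 0.10, limma adjusted p = 0.160), and was called lower with array weights. Ogfr, the intracellular receptor for Met-enkephalin, differed by 0.22 (SE 0.07, limma adjusted p = 0.202). Over the 3 genes, MEFs + nilotinib differed from MEFs + DMSO by -0.39 to 0.21 without ALL cells. MEFs + ALL + nilotinib differed from MEFs + nilotinib by -0.05 to 0.05. The 14 genes for factors known to act on the Penk promoter, of the CREB, AP-1 and NF-kappaB families and AP-2, had a median of 0.01 and 0 calls by limma. An unadjusted p under 0.05 was found for 2 of the 14, beside 5770 of the 35557 probesets. Fosl2, an AP-1 subunit, differed by 0.31 (SE 0.08, limma adjusted p = 0.119) and was called with array weights, and Creb1 differed by -0.28 (SE 0.14, limma adjusted p = 0.369).

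**Figure D3:**
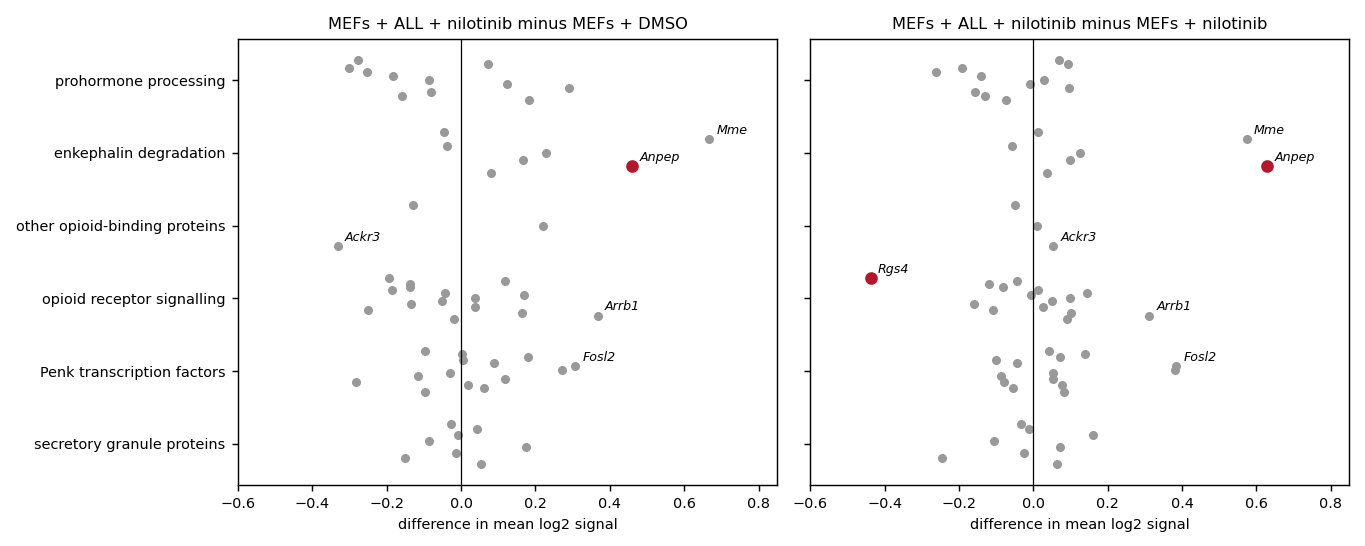
Difference in mean log2 signal (horizontal axes) of the 58 genes of the 6 lists, for MEFs + ALL + nilotinib minus MEFs + DMSO (left) and minus MEFs + nilotinib (right). Each point is a gene, and large red points are calls by limma. Anpep is called in both panels, at 0.46 and 0.63, and Rgs4 in the right panel, at -0.44, with most points within 0.3 of 0.

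Nilotinib without ALL cells gave 0 calls among the 58 genes, and 0 with array weights. An unadjusted p under 0.05 was found for 8 of the 58, beside 3985 of the 35557 probesets. On the MEFs + ALL + DMSO array 7 of the 58 were called relative to MEFs + DMSO, beside 10.3% of all probesets. Of the 58, 2 were called higher and 5 lower, beside 6.67% and 3.59% of all probesets. These genes lie outside the rule for named genes, except Pcsk6, Arrb1 and Gnai1, and were chosen after their values were seen. The convertases Pcsk1 (-0.52), Pcsk5 (-0.58) and Pcsk6 (-0.40), with Cpe (-0.35) and Gnai1 (-0.71), were called lower, and the beta-arrestin genes Arrb1 (0.65) and Arrb2 (0.65) were called higher. The signals of Pcsk1 lay within the range of the chemosensory receptor genes (3.16 to 6.29). Without each MEFs + DMSO replicate in turn, the calls of Pcsk1, Pcsk5 and Arrb1 held in 3 of 3 fits and that of Arrb2 in 2, being lost without replicate 1 (limma adjusted p = 0.0512), while those of Pcsk6, Cpe and Gnai1 were lost in all 3. The leukocyte markers of this array were high, 10 of 10 pan-leukocyte genes being called higher than in MEFs + DMSO, and their part in these calls was not tested.

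The genes whose log2 signal followed that of Penk most closely were sought among 994 genes that spanned at least 1 log2 unit over the 10 arrays. The measure was Pearson's r over the 10 arrays, given as a description, since the arrays fall into those with and those without ALL cells and both genes are read from the same dishes. Of the 994 genes, 25 had r over 0.9. The 8 highest were the neutrophil chemokine gene Cxcl5 (0.979), the complement C1 inhibitor gene Serping1 (0.974), Dio3, which inactivates thyroid hormone (0.974), the lactate exporter gene Slc16a3 (0.972), the neuronal endosome gene Nsg1 (0.961), Adm, the precursor of the vasodilator adrenomedullin (0.957), Stmn2, a microtubule regulator of neurons (0.955), and the chemokine gene Cxcl15 (0.948). Without the MEFs + ALL + DMSO array these r were 0.970, 0.972, 0.962, 0.959, 0.976, 0.935, 0.942 and 0.932, in the same order of genes. Over those 9 arrays, 3 of the 8 genes were again among the highest 8, namely Nsg1, Serping1 and Cxcl5.

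Serping1 had log2 signals of 8.51, 8.21 and 8.37 in MEFs + ALL + nilotinib, 8.61 in MEFs + ALL + DMSO, 7.38, 7.46 and 7.26 in MEFs + nilotinib, and 7.49, 7.22 and 6.98 in MEFs + DMSO. Its arrays with ALL cells were all above those without them. Serping1 and Cxcl5 were picked for following Penk, which separates these arrays, so such a separation came with the choice. The deviations of Serping1 from its group means had an r of 0.638 with those of Penk over the 9 arrays of the groups of 3, a description from few arrays. Cxcl5 showed the same separation of the groups, at 6.32 to 6.50 in MEFs + ALL + nilotinib and 6.74 in MEFs + ALL + DMSO, against 5.33 to 5.51 in MEFs + nilotinib and 5.40 to 5.49 in MEFs + DMSO. Its deviations from the group means ran the other way (r = -0.471), so its likeness to Penk lay in the group means. Over the 8 genes this r within groups ran from -0.471 for Cxcl5 to 0.877 for Adm.

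Nsg1 and Stmn2 are genes of neurons, in which Penk is also expressed, and Stmn2 was among the 12 neural markers. The mean log2 signal of that list was 6.82 to 7.02 in MEFs + ALL + nilotinib, 6.76 in MEFs + ALL + DMSO, 6.80 to 6.87 in MEFs + nilotinib and 6.79 to 6.87 in MEFs + DMSO. Limma called 2 of the 12 higher in MEFs + ALL + nilotinib relative to MEFs + DMSO, Stmn2 (0.73, limma adjusted p = 0.0391) and the neuronal tubulin gene Tubb3 (0.35, limma adjusted p = 0.0465), with a median of 0.05 over the list. In this comparison 0.503% of all probesets were called higher, and Stmn2 was named for following Penk, which already separates these groups.

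The genes most opposite to Penk were Eln, the gene of elastin (r = -0.976 over 10 arrays and -0.965 without the MEFs + ALL + DMSO array), Chac1, which degrades glutathione (-0.976 and -0.975), and Prss35, a protease-like secreted protein (-0.973 and -0.959). Chac1 had log2 signals of 8.01, 7.94 and 7.88 in MEFs + ALL + nilotinib, 7.78 in MEFs + ALL + DMSO, 8.76, 8.64 and 8.72 in MEFs + nilotinib, and 8.80, 8.81 and 8.90 in MEFs + DMSO. All its arrays with ALL cells lay below all arrays without them, a separation that came with the choice of genes by r with Penk. The r of deviations from group means with those of Penk was 0.406 for Chac1, 0.038 for Prss35 and -0.725 for Eln. For Chac1 and Prss35 the opposition to Penk thus lay in the group means.

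**Figure D4:**
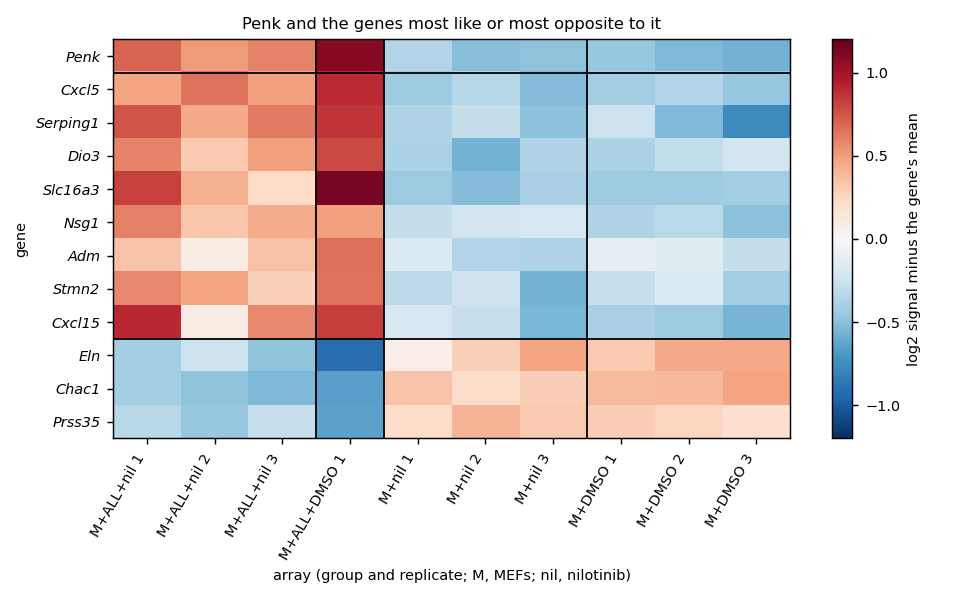
Log2 signal minus the gene's mean over the 10 arrays (colour) of Penk, the 8 genes most like it and the 3 most opposite to it (rows), on each array (columns, by group). Lines separate the groups of arrays and of genes, M stands for MEFs and nil for nilotinib, and Penk and the genes like it lie above their means (red, palest for Adm and Cxcl15 at 0.09 on MEFs + ALL + nilotinib replicate 2) on the 4 arrays with ALL cells and below them (blue) on the 6 without them.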

How the data were processed

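Total RNA of 10 dishes was labelled with biotin and hybridised to Affymetrix Mouse Gene 1.0 ST arrays. The authors deposited signals whose log2 scale was taken from their values. A supplementary legend of the study names RMA normalization, and Partek is the tool in the submitters' processing notes (version not given in the sources). The table holds 35557 probesets with 0 missing values, and array medians ran between 6.94 and 7.01, so it was used without further normalization. The array's annotation, checked by gene ID against RefSeq (GRCm38.p6, used for names alone), pairs 21789 probesets with 1 symbol, 1621 with several and 12147 with none.

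Groups came from the labels. Differences, SE and p-values came from limma 3.58.1 in R 4.3.3 (lmFit and eBayes, 10 arrays, 4 group means, Benjamini-Hochberg over all probesets, threshold 0.05). The spread of the other groups stands in for that of the single MEFs + ALL + DMSO array. The comparisons share control arrays. Folds are ratios of mean anti-logged signals. Each gene was read from its single-symbol probeset with the highest mean.

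The members and lists were chosen with earlier results of these data known. Named were all members, in each list the genes called in comparisons of the groups of 3 and the 2 with the largest difference between MEFs + ALL + nilotinib and MEFs + DMSO, and the 8 genes most like Penk and 3 most opposite. Furthermore Cpe, Pcsk1, Pcsk5, Arrb2 and some marker genes were named after their values were seen. Alternatives were quantile normalization, leaving out the dimmest 25% of probesets, eBayes with trend and robust, array weights, only the compared groups, a replicate block, the mean of a gene's probesets and leaving out each replicate. The array weights ran from 0.28 for MEFs + ALL + nilotinib replicate 2 to 2.01 for MEFs + DMSO replicate 2. A fit without the MEFs + ALL + DMSO array, and the alternatives for Penk between MEFs + ALL + nilotinib and MEFs + ALL + DMSO, were chosen after seeing the data. The fit was tested on simulated data. The value of 1 pan-leukocyte gene is not reported here. The number of arrays limits the precision.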

Additional observations from a re-analysis of the deposited data

Results flagged for a closer look

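Pcsk1, the convertase that begins the cutting of many prohormones in regulated secretory cells, was the 1 gene of the lists called for the interaction of ALL cells and drug. This was 1 of 58 list genes, where limma called 3.95% of all probesets, so the count does not set the lists apart. The signals of Pcsk1 lie within the range of the chemosensory receptor genes (3.16 to 6.29), so the probeset is not shown to be above background. The interaction of those 1190 genes had a median of 0.17 with 16.6% negative. The log2 signal of Pcsk1 was 5.72, 5.68 and 5.68 in MEFs + ALL + nilotinib, 5.26 in MEFs + ALL + DMSO, 5.68, 5.60 and 5.71 in MEFs + nilotinib, and 5.80, 5.82 and 5.71 in MEFs + DMSO. The difference with ALL cells was 0.03 under nilotinib and -0.52 under DMSO, and the interaction was 0.55 (SE 0.11, limma adjusted p = 0.0240). It passed in 4 of 9 fits that left out a replicate, with limma adjusted p between 0.0314 and 0.0726 over the 9. It was lost without replicate 1 or 3 of MEFs + ALL + nilotinib, replicate 1 or 2 of MEFs + DMSO and replicate 2 of MEFs + nilotinib, and also with quantile normalization and with trend and robust. The value under DMSO is that of the array whose pro-B and B cell marker mean was 8.0, against 5.80 to 5.93 in MEFs + DMSO, and the part of leukocyte RNA in it was not tested.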

How the results depend on the processing

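The differences of Penk kept their direction under all alternatives run. For MEFs + ALL + nilotinib they ran from 1.07 to 1.16 relative to MEFs + DMSO and from 1.01 to 1.10 relative to MEFs + nilotinib. For the MEFs + ALL + DMSO array they ran from 1.55 to 1.63 relative to MEFs + DMSO. Between MEFs + ALL + nilotinib and MEFs + DMSO the probesets called, 223 as reported, were 421 without the dimmest 25%, 476 with trend and robust, 1263 with array weights, 12 with only the compared groups and 8 to 99 without a replicate. The other opioid genes called, 0 as reported, were 1 without the dimmest 25% and with array weights. The list genes called, 1 as reported, were 2, 3, 6 and 0 in the first 4 of these settings and 0 without any replicate. Against MEFs + nilotinib the probesets called, 66 as reported, were 115, 117, 141 and 4 in those settings and 12 to 36 without a replicate, and the list genes, 2 as reported, were 0 with only the compared groups and without any replicate. Between MEFs + nilotinib and MEFs + DMSO 0 probesets were called, and 57 without MEFs + nilotinib replicate 1, 0 to 57 being the range without a replicate. Between the MEFs + ALL + DMSO array and MEFs + DMSO 3651 probesets were called, with 6615 under array weights and 2137 to 2491 without a replicate. The other opioid genes called there, 1 as reported, were 2 with array weights, 0 with only the compared groups and 1 to 2 without a replicate. The list genes, 7 as reported, were 11 with quantile normalization, 15 with array weights, 4 with only the compared groups and 3 to 4 without a replicate. For the interaction 1406 probesets were called, 2323 with array weights, and the list genes, 1 as reported, were 0 with quantile normalization and with trend and robust, 2 with array weights and 0 to 3 without a replicate. Fits without a replicate and with only the compared groups hold fewer arrays, and for the other settings the cause was not tested. The lone MEFs + ALL + DMSO array adds nothing to the estimated spread, so leaving it out could not change the counts between the groups of 3.

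Samples of a number share only that number. Deviations from group means correlated between -0.293 and 0.241 over pairs of the same number. With the replicate block, 8 probesets were called between MEFs + ALL + nilotinib and MEFs + DMSO and 12 against MEFs + nilotinib, with 0 list genes in both. The MEFs + ALL + DMSO array carries no number, so it had no such fit.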
